A study of Mus musculus with 96 samples.

Results

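The 8 genes described here encode enzymes of heme synthesis: Alas1, Alas2, Alad, Uros, Urod, Cpox, Ppox and Fech. They were chosen by symbol, and all 8 were found among the 49466 genes of the count table. The data were Smart-seq2 read counts (full-length cDNA of single cells, without molecular identifiers) from one 96-well plate. Every cell came from C57/Bl6J fetal liver at day 14.5 of gestation, with no transgene, mutation or treatment named. Cells carrying lineage markers, Sca-1, CD16/32, CD41 or Ter119 had been removed with antibodies. The remaining cells were sorted by their staining for Kit, CD71 and CD24 into 4 gates of 24 wells. BFUE, burst-forming units, are the earlier erythroid progenitors, and CFUE, colony-forming units, the later ones. Intermediate_25-35 and Intermediate_50-60 are gates between them, named for their CD71/CD24 staining. The labels name no animal, so each gate is 1 sample without replicates, and no test between gates was made. Since every gate had plate columns of its own, a difference by column and a difference by gate cannot be told apart.

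Heme synthesis starts and ends in the mitochondrion, with its middle steps in the cytosol. The first step, the joining of glycine and succinyl-CoA, is limiting and is carried out by the products of a pair of genes: Alas1, used in most tissues, and Alas2, used in erythroid cells. Alad and Uros then build the porphyrin ring, Urod, Cpox and Ppox modify it, and Fech inserts the iron. Red cell precursors make more heme than other cells because they fill themselves with hemoglobin.

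Of the 96 wells, 91 were kept, with 947458 to 3785903 reads each and a median of 9363 genes. The 23 BFUE cells were divided at 100 CPM (reads of a gene after scaling every cell to the same total) of Cd34, a gene of stem and multipotent cells. The 8 cells above this level are called Cd34-high and the 15 below it Cd34-low. The Cd34-high cells did not carry the markers of their label. Gata1, the main erythroid transcription factor, had a median of 4.46 CPM in them against 419 in Cd34-low cells. Mpo, a granulocyte enzyme, had a median of 1561 CPM against 4.10. The 10 erythroid markers summed to 131 CPM in the Cd34-high cells, against 2048 to 5059 CPM in the other 4 groups. The later groups held 21 cells (Intermediate_25-35), 24 cells (Intermediate_50-60) and 23 cells (CFUE). In CFUE, the cell of well D10 stood apart, with the lowest Gata1 (3.17 CPM), Klf1 (239 CPM), Kit (5.28 CPM) and Tfrc (343 CPM) of the 23. Other genes of later erythroid cells were not low in it. Hba-a1 (1697 CPM), Slc4a1 (137 CPM) and Cd24a (1641 CPM) ranked 17, 14 and 20 from the lowest of the 23. This cell also had the fewest reads of all kept cells, 947458. Values without it are given where it matters. Hepatoblast markers had reads in every group, all 8 of 8, at a summed level of 88.1 to 255 CPM. A level below is the CPM of reads summed over the cells of a group. Its interval is an exact 95% interval that covers counting error only.

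Promoter windows from RefSeq (GRCm38.p6, from 250 bases before a start to 50 after it) were found for 7 of the 8 members, 10 windows in all. Only the 250 bases before each start were searched, on both strands. The words were GATA words (AGATAA, or the same with T as first letter, G as last letter, or both) and the CACC-box word CCNCNCCC. In these 250 bases, GATA words were found for Alas2, Cpox and the second start of Uros, and for none of the other 7 windows. Of 32851 windows in the genome, 26.5% held a GATA word in the same 250 bases. The stretches below are shown because they are the windows with a GATA word, 3 of 10. They leave out bases that lie in an exon. Capitals mark GATA words, which read on the opposite strand.

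Alas2, chrX:150547167-150547374, plus strand: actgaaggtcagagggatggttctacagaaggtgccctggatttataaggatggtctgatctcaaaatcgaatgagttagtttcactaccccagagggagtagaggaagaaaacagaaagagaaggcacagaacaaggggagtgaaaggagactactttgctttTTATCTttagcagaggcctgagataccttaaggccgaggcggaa
Cpox, chr16:58669958-58670207, plus strand: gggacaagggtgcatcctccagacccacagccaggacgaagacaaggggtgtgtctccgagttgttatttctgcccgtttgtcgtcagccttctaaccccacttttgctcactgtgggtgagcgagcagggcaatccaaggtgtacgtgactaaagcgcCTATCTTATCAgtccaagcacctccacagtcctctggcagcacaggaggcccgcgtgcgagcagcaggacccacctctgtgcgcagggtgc
Uros, second start, chr7:133702617-133702750, minus strand: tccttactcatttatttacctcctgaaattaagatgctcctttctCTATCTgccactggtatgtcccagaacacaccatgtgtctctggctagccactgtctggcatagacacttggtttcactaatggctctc

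The word of Alas2 stood 86 bases before the start. Cpox held a pair of overlapping words, 91 and 86 bases before it. The second start of Uros had words at 205 and 68 bases, and the nearer of them lies in an exon part that is not printed. CACC-box words were in windows of Alas1, Alas2, Alad and Uros, against 45.9% of all windows. Uros is known to have a promoter used in all tissues and an erythroid one, and the gene counts pool transcripts of both. A match says only that these letters occur there.

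The levels of the 8 genes had 3 patterns over the progenitor groups. Alas1 was highest in Cd34-high BFUE and lowest in CFUE. Alad, Urod, Cpox, Ppox and Fech were low in Cd34-high BFUE and 4.44-fold to 10.1-fold higher in Cd34-low BFUE, and were highest in CFUE. Uros and Alas2 were not higher in Cd34-low than in Cd34-high BFUE and were also highest in CFUE. In the undivided BFUE gate of 23 cells the levels were 47.8 CPM for Alas1, 0.0786 for Alas2, 451 for Alad, 30.9 for Uros, 299 for Urod, 47.6 for Cpox, 78.1 for Ppox and 190 for Fech. Between Cd34-low BFUE and CFUE, 7 of the 8 members were 1.5-fold or more higher and 1, Alas1, was lower. Of all 8246 genes with 10 CPM or more in either group, 13.6% were higher by this measure and 24.9% lower. The median log2 ratio of the 8 members was 1.37, and that of all these genes was -0.11.

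**Figure D1:**
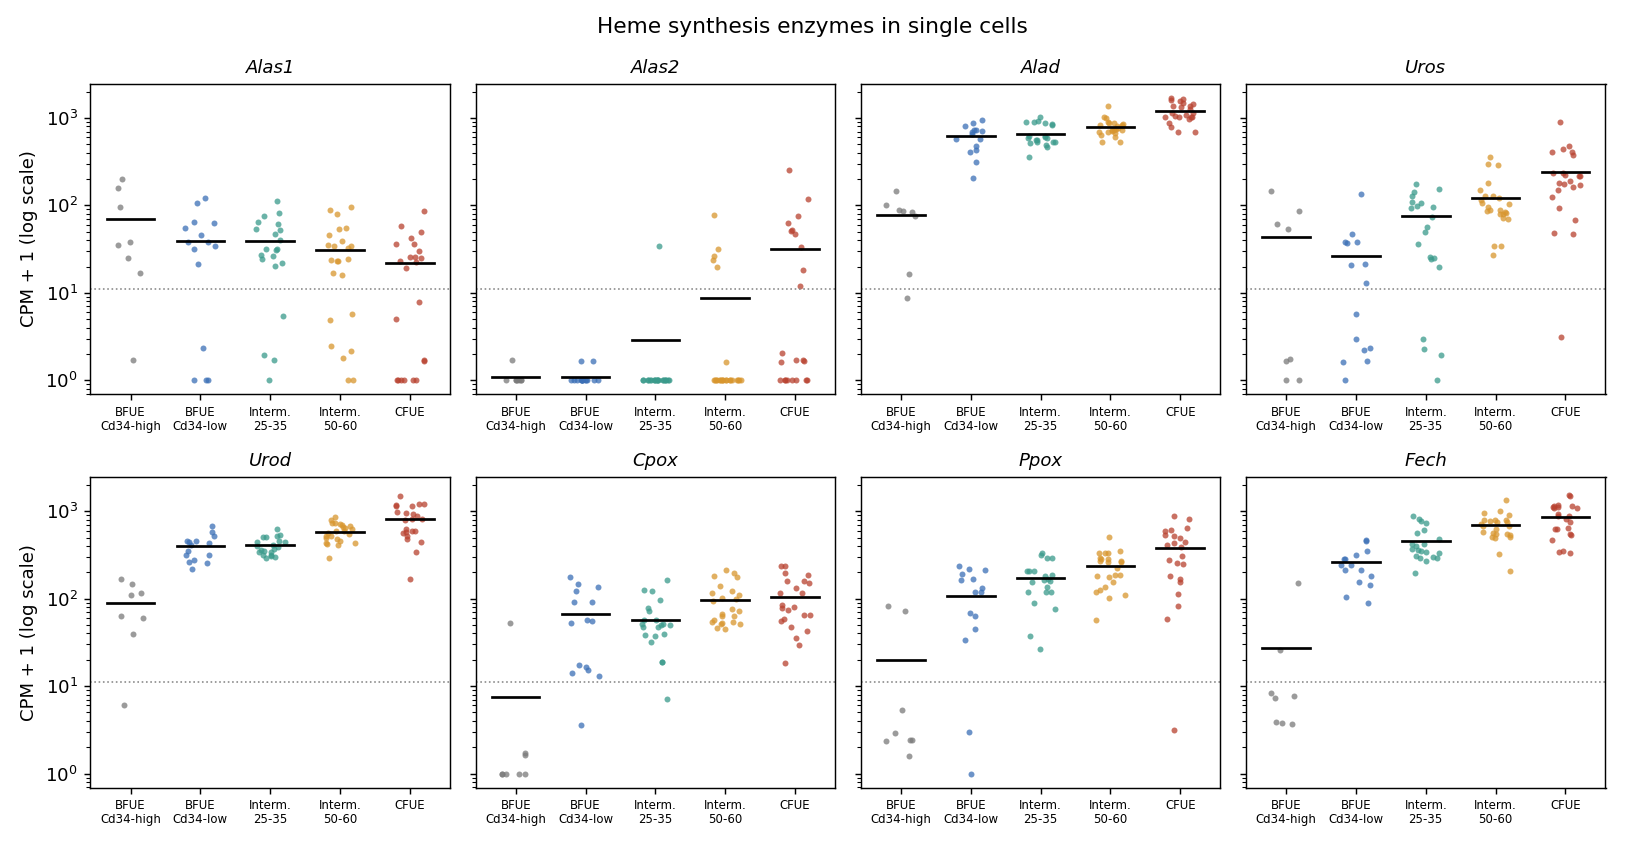
Level of each enzyme in each of the 91 cells (points, CPM plus 1, log scale) in the 5 groups of cells. Black bars give the CPM of the summed reads and the dotted line 10 CPM; Alas2 has cells above the line only in the last 3 groups, while Alad and Urod lie above it in every cell outside Cd34-high BFUE.

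Alas1 (chromosome 9, 106233455 to 106248654, minus strand, GRCm38) was at 68.4 CPM in Cd34-high BFUE, 38.4 in Cd34-low BFUE, 38.0 in Intermediate_25-35, 30.3 in Intermediate_50-60 and 20.8 in CFUE. Single cells ran from 0.717 to 197 CPM (median 35.6) in the Cd34-high group and from 0 to 85.5 CPM (median 21.5) in CFUE, so the groups overlapped. It was 1.85-fold lower in CFUE than in Cd34-low BFUE (interval 1.68 to 2.04). The share of cells with 10 CPM or more was 7 of 8, 11 of 15, 17 of 21, 17 of 24 and 13 of 23 in the same order. Over the last step, from Intermediate_50-60 to CFUE, the direction was not the same over the plate. The log2 ratio was -1.44 in plate rows A to D, but 0.26 in rows E to H. Alas1 is also a liver enzyme, and hepatoblast transcripts were present. Its correlation with Alb and Afp over the 91 cells, with group means subtracted, was 0.10 and 0.06 (Pearson's r of log2 of CPM plus 10, a description over cells of one plate). Their part in the level of Alas1 was not tested further. Exons of the antisense-strand gene 4930500F10Rik overlap Alas1 over 465 bases, and the strand setting of the counting is not given in the sources used here.

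Alas2 (chromosome X, 150547375 to 150570638, plus strand) was nearly unread in BFUE and present in a minority of later cells. It had 1 read in the 8 Cd34-high cells, 2 in the 15 Cd34-low cells, 58 in Intermediate_25-35, 283 in Intermediate_50-60 and 1088 in CFUE. These correspond to 0.0835, 0.0763, 1.87, 7.77 and 30.7 CPM. The ratio of CFUE to Cd34-low BFUE was 402, with an interval of 111 to 3325 that reflects the 2 reads of the lower group. Per cell, the lowest, median and highest values in CFUE were 0, 0.712 and 252 CPM. In Intermediate_50-60 they were 0, 0 and 76.7 CPM.

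The number of cells with 10 CPM or more of Alas2 was 0 of 8, 0 of 15, 1 of 21, 5 of 24 and 10 of 23. In CFUE this is 43.5% of cells (exact binomial interval 23.2 to 65.5%), and the other 13 cells lay at 1.06 CPM or below. The 0 of 15 in Cd34-low BFUE allows a share of up to 21.8%. In Intermediate_50-60 the cell of well H8 held 134 of the 283 reads, or 47.3%, and the level without it was 4.30 CPM over 23 cells. The cell of well F12 held 34.1% of the CFUE reads of Alas2, and 1 cell held all 58 reads of Intermediate_25-35. Rows A to D held 3 of the 10 CFUE cells with Alas2, at a summed 19.3 CPM over 11 cells. Rows E to H held the other 7, at 40.9 CPM over 12 cells. Apex2 and Mir3620, on the opposite strand, share 372 exon bases with Alas2.

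Every one of the 16 cells with 10 CPM or more of Alas2 also had 10 CPM or more of Alad, Uros, Urod, Cpox, Ppox and Fech. Outside the Cd34-high group, Alad, Urod and Fech were at that level in all 83 cells, Cpox in 81, Ppox in 80 and Uros in 71. Their presence in cells with Alas2 was thus largely given in advance and sets no order among the genes. In 67 of the 83 cells, Alad, Urod and Fech were at that level without Alas2. Alas2 was by this measure the member found in the fewest cells. In 7 of the 16 cells Alas1 was below 10 CPM. The 6 genes from Alad to Fech reached 10 CPM together in 0 of 8, 6 of 15, 16 of 21, 24 of 24 and 22 of 23 cells.

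In CFUE, cells with Alas2 were mostly those with Slc4a1, the band 3 anion exchanger of the red cell membrane. Of the 10, 9 also had 10 CPM or more of Slc4a1, which 13 of the 23 CFUE cells had. Over the 23 cells Pearson's r was 0.81 between Alas2 and Slc4a1 and 0.60 between Alas2 and Hba-a1, an alpha globin gene. Without the cell of well D10, r was 0.84 and 0.65. Other members also went with these genes over the 23 cells. With Hba-a1, r was 0.73 for Alad, 0.63 for Cpox, 0.57 for Urod and 0.51 for Fech. It was 0.39 for Uros, 0.31 for Ppox and -0.11 for Alas1. With Slc4a1, r was 0.65 for Fech and 0.64 for Alad, and 0.46 or less for the rest. In Intermediate_50-60, 1 of the 5 cells with Alas2 had Slc4a1 at that level, and 2 of the 3 cells with Slc4a1 had no Alas2 at that level. The cell of well H8 in that gate had 76.7 CPM of Alas2, 901 CPM of Hba-a1 and 0 of Slc4a1. The cell of Intermediate_25-35 (well G4) had 33.2 CPM of Alas2 and 0 of Slc4a1. In CFUE the cell of well B11 had 17.2 CPM of Alas2, 0.663 of Slc4a1 and 58.4 of Hba-a1. These points are cells of the same library plate and share their depth.

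**Figure D2:**
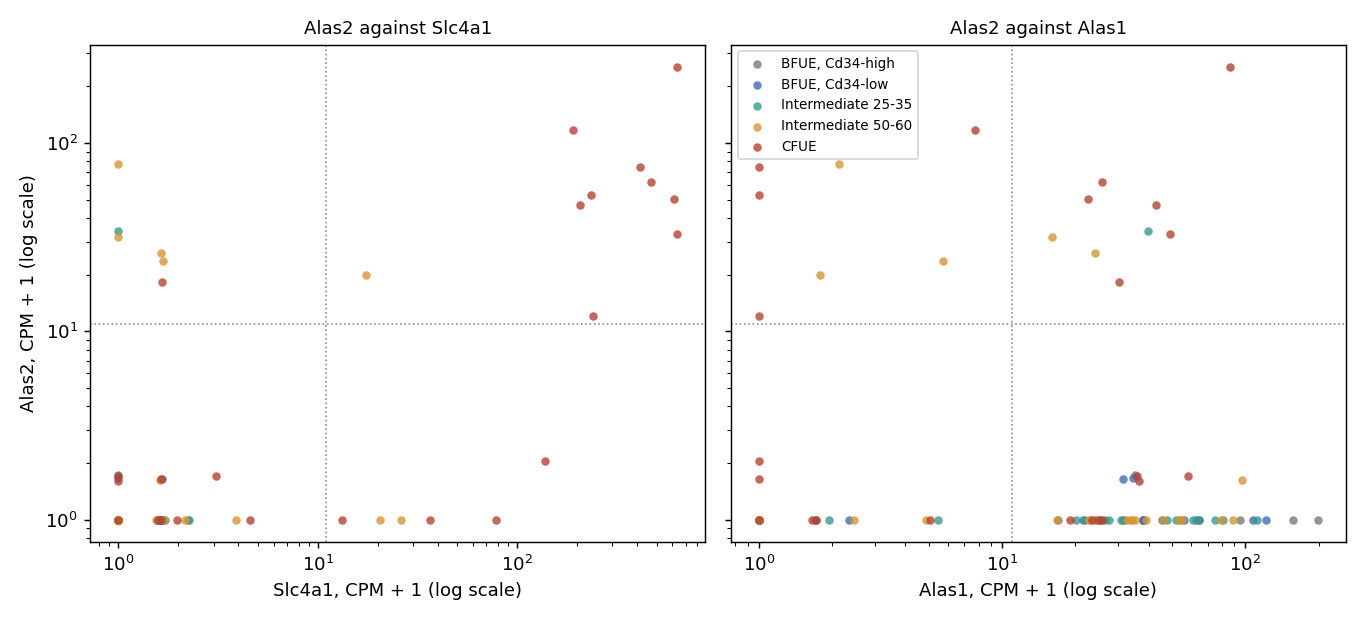
Alas2 in each of the 91 cells against Slc4a1 (left) and Alas1 (right), as CPM plus 1 on log scales, coloured by group; dotted lines mark 10 CPM. In CFUE 9 of the 10 cells with Alas2 lie in the upper right corner of the left panel, while 4 of the 5 Intermediate_50-60 cells with Alas2 lie at the upper left.

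Set on a scale of CPM per kilobase of exon, Alas2 made up 0.313, 0.508, 11.2, 39.7 and 79.1% of the sum of Alas1 and Alas2 from Cd34-high BFUE to CFUE. With the longest transcript as the length, the share in CFUE was 71.1%. Without the cell of well H8, the share in Intermediate_50-60 was 25.8%. On that scale Alas2 exceeded Alas1 in 12 of 23 CFUE cells (10 of them with 10 CPM or more of Alas2 and 2 with 1 read of it), 5 of 24 cells of Intermediate_50-60, 1 of 21 of Intermediate_25-35 and 0 of 23 BFUE cells. By the 10 CPM measure, CFUE held 6 cells with both genes, 7 with Alas1 alone, 4 with Alas2 alone and 6 with neither. Those 6 cells can hold either gene below that level.

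Alad (chromosome 4, 62509169 to 62519918, minus strand), which joins a pair of aminolevulinate molecules into porphobilinogen, was the member with the highest level per kilobase from Cd34-low BFUE on. Its levels were 75.7, 622, 657, 794 and 1186 CPM in the 5 groups. Cells ran from 7.71 to 143 CPM (median 84.0) in the Cd34-high group and from 206 to 944 CPM (median 662) in the Cd34-low group, with no overlap. The ratio of these groups was 8.23 (interval 7.69 to 8.80). CFUE cells ran from 689 to 1702 CPM (median 1131), 1.91-fold above Cd34-low BFUE in the sum and with overlap between cells.

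Of the 7 members measured at 10 CPM or more in either BFUE subset, 5 were higher and 2, Alas1 and Uros, were lower in Cd34-low than in Cd34-high cells. Of all 9224 genes measured there, 25.4% were higher and 30.4% lower. Alad and Urod were the members whose cells did not overlap between the subsets. The share of all genes without such overlap was not counted, so this is a description only. The rest of the 5 (Cpox, Ppox and Fech) had Cd34-high cells within the Cd34-low range. Among Cd34-high cells, the cell of well C1 held 97.5% of the Cpox reads and that of well E2 74.9% of the Fech reads. Without both cells, the log2 ratio between the subsets was 8.21 for Cpox in place of 3.33 and 4.98 for Fech in place of 3.33. The Cd34-high cells combined the enzymes differently from each other. Wells B1 and B2 had 71.7 and 81.6 CPM of Ppox, and the other 6 wells had 4.32 CPM or less. Wells C1, C2, F1 and H2 had 52.8 to 147 CPM of Uros, and the other 4 had 0.735 or less. Ppox was under 10 CPM in 6 of the 8 cells, against a median of 5 for genes within 1.5-fold of its mean level. For Uros it was 4 cells against 3. Such gaps were thus near those of other genes at these levels. No Cd34-high cell had more than 5 of the 8 members at 10 CPM or more, with a median of 4, against 6 in Cd34-low cells and 7 in each later gate. The Gata1 and Klf1 reads of these cells were low throughout, at most 66.9 and 71.5 CPM. Of 6 neutrophil and monocyte markers, 3 were at 10 CPM or more in the Cd34-high group and 2 in the Cd34-low group, at sums of 2655 and 31.7 CPM, with Elane at 0 in both. Lymphoid markers summed to 807 and 1.22 CPM, with Dntt at 0 in both, and megakaryocyte markers to 60.5 and 173 CPM, with Pf4 at 0 in both. Their part in the differences of the enzymes was not tested.

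Uros (chromosome 7, 133686243 to 133710072, minus strand) closes the porphyrin ring. Its levels were 42.8, 25.5, 74.0, 119 and 242 CPM. It was higher at each of the last 3 steps, by 2.90-fold (interval 2.66 to 3.17), 1.61-fold (1.53 to 1.70) and 2.03-fold (1.95 to 2.10). The first of these was 1.62-fold in rows A to D, but 6.48-fold in rows E to H. It was 9.49-fold higher in CFUE than in Cd34-low BFUE (8.77 to 10.3), at 6.21-fold in rows A to D, but 18.6-fold in rows E to H. The lowest, median and highest cell was 0, 11.9 and 133 CPM in Cd34-low BFUE, 25.9, 92.1 and 356 in Intermediate_50-60, and 2.11, 189 and 909 in CFUE. The groups thus overlapped, and the lowest CFUE value is that of well D10. Of the 83 cells outside the Cd34-high group, 12 had less than 10 CPM of Uros, while all 83 had Alad, Urod and Fech above it. The 12 were 7 of 15 Cd34-low BFUE cells, 4 of 21 Intermediate_25-35 cells and 1 CFUE cell. Uros had a lower level than those 3 genes. Genes within 1.5-fold of its mean level had a median of 6, 1 and 1 such cells in these groups. The count for Uros was thus near theirs in Cd34-low BFUE and CFUE, and above it in Intermediate_25-35. The comparison within BFUE turned with the plate rows. Uros was 1.68-fold lower in Cd34-low than in Cd34-high cells, a log2 ratio of -0.75. The log2 ratio was 0.34 in rows A to D, but -2.02 in rows E to H.

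Urod (chromosome 4, 116989965 to 116994413, minus strand), which removes the side-chain carboxyl groups of uroporphyrinogen, was at 89.1, 395, 405, 581 and 811 CPM. Its cells ran from 219 to 681 CPM (median 406) in Cd34-low BFUE and from 169 to 1500 CPM (median 807) in CFUE. It was 2.05-fold higher in CFUE (interval 2.01 to 2.10) but 1.02-fold higher in Intermediate_25-35 than in Cd34-low BFUE, an interval of 0.999 to 1.05 that includes no difference. The groups overlapped at every later step.

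Cpox (chromosome 16, 58670292 to 58717636, plus strand), coproporphyrinogen oxidase, was at 6.60, 66.3, 56.3, 96.1 and 103 CPM. Its CFUE cells ran from 17.5 to 235 CPM (median 78.4) and its Cd34-low cells from 2.61 to 177 CPM (median 54.4). At 1.55-fold (interval 1.46 to 1.64) it had the smallest excess of CFUE over Cd34-low BFUE among the 7 higher members. That excess was 1.93-fold in rows A to D, but 1.30-fold in rows E to H. From Cd34-low BFUE to Intermediate_25-35 it was 1.37-fold higher in rows A to D, but 1.88-fold lower in rows E to H. Gpr15, on the opposite strand, shares 204 exon bases with it.

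Ppox (chromosome 1, 171275990 to 171281186, minus strand), protoporphyrinogen oxidase, was at 19, 105, 172, 232 and 378 CPM. It was 3.59-fold higher in CFUE than in Cd34-low BFUE (interval 3.45 to 3.74), at 2.20-fold in rows A to D, but 4.58-fold in rows E to H. Cells of the Cd34-low group ran from 0 to 233 CPM (median 117) and CFUE cells from 2.11 to 870 CPM (median 388), and the groups overlapped. The last step differed by plate rows. CFUE was at 208 CPM in rows A to D, but at 530 CPM in rows E to H, while Intermediate_50-60 was at 208 and 256 CPM. B4galt3, on the opposite strand, shares 791 exon bases with Ppox.

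Fech (chromosome 18, 64452914 to 64490251, minus strand), ferrochelatase, was at 26.3, 265, 452, 687 and 858 CPM. Cells ran from 89.0 to 470 CPM (median 241) in Cd34-low BFUE and from 330 to 1540 CPM (median 885) in CFUE, with overlap. The ratio of these sums was 3.24 (interval 3.15 to 3.32), at 2.50 in rows A to D, but 4.03 in rows E to H. In Cd34-high BFUE the median cell had 6.48 CPM, and the single cell of well E2 had 151 CPM.

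**Figure D3:**
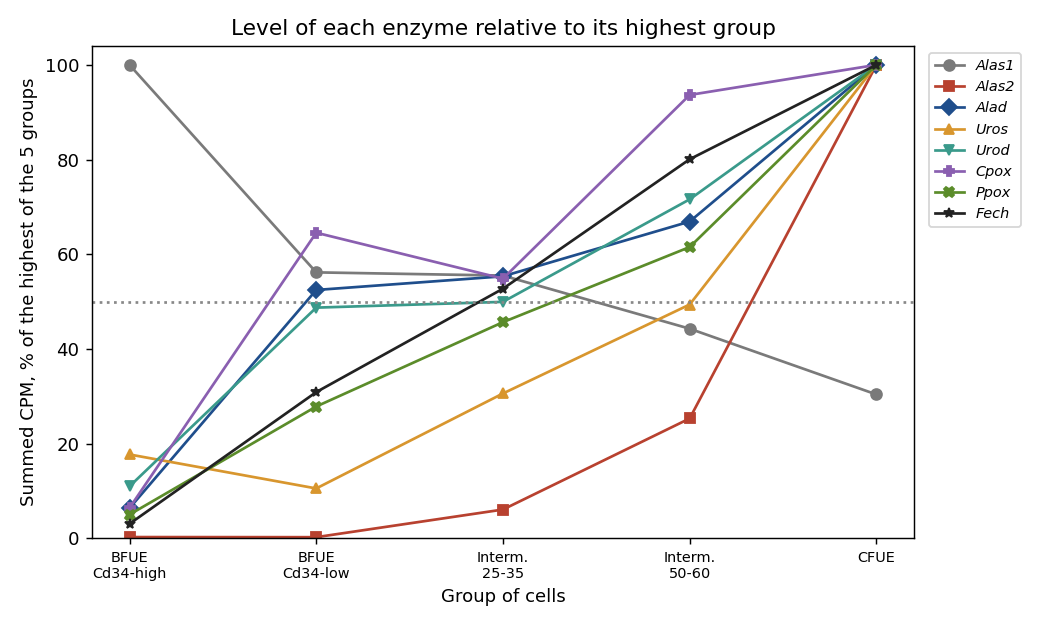
Summed CPM of each enzyme as a percent of its highest group, over the 5 groups of cells; the dotted line marks 50%. Over all plate rows, Alad and Cpox cross the line in Cd34-low BFUE, Alas2 and Uros not before CFUE, and Alas1 runs the other way; 5 members cross it in different groups in rows A to D than in rows E to H.

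The order of onset was read from the first group at 50% or more of each gene's highest level. Alad (52.5%) and Cpox (64.6%) reached it in Cd34-low BFUE and Fech (52.7%) in Intermediate_25-35. Urod (71.6%) and Ppox (61.5%) reached it in Intermediate_50-60. Alas2 and Uros reached it in CFUE, with Alas2 at 25.3% and Uros at 49.4% in the gate before. Urod stood at 48.7 and 49.9% in Cd34-low BFUE and Intermediate_25-35, so its place after Fech rests on a small difference, as does that of Uros. The group at 50% was the same in both sets of plate rows for Alas1, Alas2 and Cpox, and differed for the other 5 members. Alad reached 50% in Cd34-low BFUE in rows A to D, but stood at 47.8% there in rows E to H and reached it in Intermediate_25-35. Urod reached it in Cd34-low BFUE (55.9%) in rows A to D, but in Intermediate_50-60 in rows E to H. Uros reached it in Intermediate_50-60 (51.3%) in rows A to D, but in CFUE in rows E to H. Ppox moved from Intermediate_25-35 to CFUE and Fech from Intermediate_25-35 to Intermediate_50-60 in the same order of rows. At 25% of the highest level, Alad, Urod, Cpox, Ppox and Fech all reached it in Cd34-low BFUE, Uros in Intermediate_25-35 and Alas2 in Intermediate_50-60, where it was at 14% without the cell of well H8. At 75%, Cpox and Fech reached it in Intermediate_50-60 and Alad, Uros, Urod, Ppox and Alas2 in CFUE. Alas1, the other gene of the first step, was at its highest in the earliest group, Cd34-high BFUE. Among the members highest in CFUE, the order at 25 and 50% over all plate rows was not that of the reactions. Alas2, of the first step, and Uros, of ring closure, were last, while Alad, which acts between them, was among the first. In rows E to H Ppox was as late as Alas2 and Uros at 50%.

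Step by step, 3 of 7 measured members were 1.5-fold or more higher in Intermediate_25-35 than in Cd34-low BFUE: Uros, Ppox (1.64-fold) and Fech (1.71-fold). Of all genes measured there, 9.54% were higher and 17.7% lower. Alad at 1.06-fold, Urod at 1.02-fold and Cpox at 0.850-fold lay within 1.5-fold over all rows, although Cpox passed it downwards in rows E to H. In Intermediate_50-60 against Intermediate_25-35, 3 of 7 were higher, namely Uros, Cpox (1.71-fold) and Fech (1.52-fold), against 7.34% of all genes, of which 9.27% were lower. In CFUE against Intermediate_50-60, 3 of 8 were higher, namely Alas2 (3.95-fold), Uros and Ppox (1.63-fold), against 7.98% of all genes, of which 9.7% were lower. Alad missed the mark at 1.49-fold, and without the CFUE cell of well D10 it was above it, at a log2 ratio of 0.59. Without the cell of well H8, Alas2 was 7.14-fold higher at this step (interval 6.01 to 8.53). No member was 1.5-fold or more lower at these 3 steps over all rows, but within plate rows Alas1 was so at 2 of them and Cpox at 1. Uros was the member above 1.5-fold at each of them. Its step into Intermediate_50-60 was 1.37-fold in rows E to H, below the mark. At the same step Cpox was 1.22-fold higher in rows A to D, but 2.45-fold in rows E to H, and Fech was 1.57-fold higher in rows A to D, but 1.47-fold in rows E to H.

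**Figure D4:**
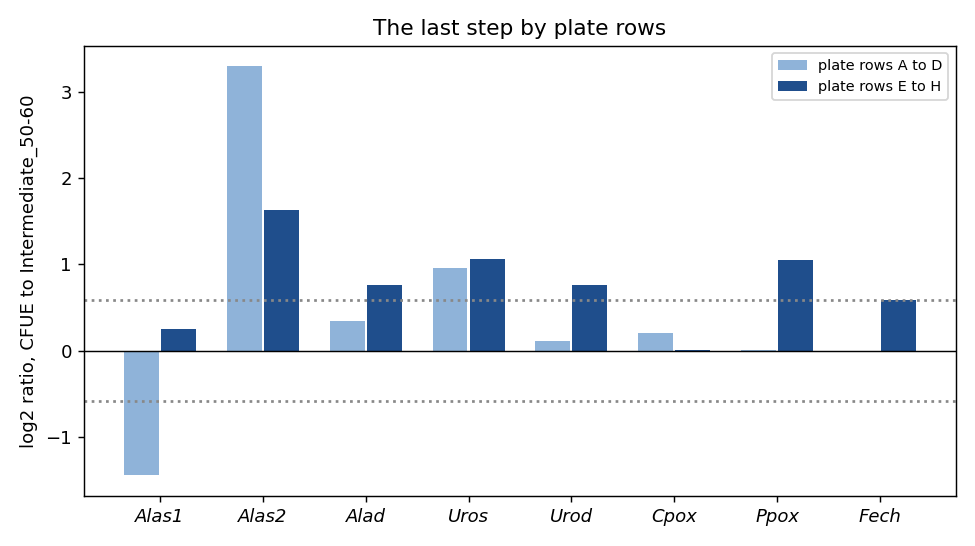
log2 ratio of summed CPM between CFUE and Intermediate_50-60 for each enzyme, in plate rows A to D (light bars) and E to H (dark bars); dotted lines mark 1.5-fold. Uros and Alas2 lie above 1.5-fold in both, whereas Alad, Urod, Ppox and Fech do so in rows E to H only, and Alas1 takes opposite signs.

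In rows E to H, 6 of 8 members were 1.5-fold or more higher in CFUE than in Intermediate_50-60 (Alas2, Alad, Uros, Urod, Ppox and Fech). In rows A to D, Alas2 and Uros were higher and Alas1 lower. The share of all genes called within each set of rows was not counted, so these counts have no background. Over all rows, 7.98% of all genes were higher and 9.7% lower at this step. In CFUE, Urod was at 636 CPM in rows A to D, but at 969 CPM in rows E to H. Fech was at 705 and 995 CPM in the same order. Rows A to D hold the cell of well D10. Without that cell, the log2 ratio over all rows went from 0.70 to 0.74 for Ppox and from 0.48 to 0.51 for Urod. It went from 0.32 to 0.34 for Fech and from 0.58 to 0.59 for Alad. The cause of the difference between the rows was not tested.

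Cell-to-cell spread was measured as the coefficient of variation (SD over mean of per-cell CPM) and set beside the median of genes within 1.5-fold of the same mean level in the same group, since the spread is larger at low levels. Alad had 0.34, 0.28, 0.22 and 0.25 from Cd34-low BFUE to CFUE, against 0.26, 0.21, 0.20 and 0.30 for its level. It lay above 78.9, 83.2, 64.3 and 29.2% of genes at its level. Urod had 0.33, 0.23, 0.24 and 0.41 in the same groups, against 0.30, 0.26, 0.22 and 0.33. It lay above 62.5, 34.4, 61.0 and 71.1% of genes at its level. Uros had 0.82, 0.70 and 0.82 in the last 3 gates, against 0.58, 0.45 and 0.45 for its level. Of the genes at its level, 91.2, 95.9 and 93.8% had a smaller coefficient. Alas2 in CFUE had a coefficient of 1.85 against 0.94, above 97.2% of 1840 genes. Fech in the last 3 gates was at 0.44, 0.34 and 0.41 against 0.25, 0.21 and 0.33. It lay above 97.3, 93.5 and 72.4% of genes at its level. Alas1 and Cpox stayed near their level, at 1.08 against 1.12 and 0.63 against 0.58 in CFUE. Ppox in the last 3 gates had 0.50, 0.45 and 0.64 against 0.38, 0.34 and 0.39, above 85.2, 84.6 and 87.7% of genes at its level.

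**Figure D5:**
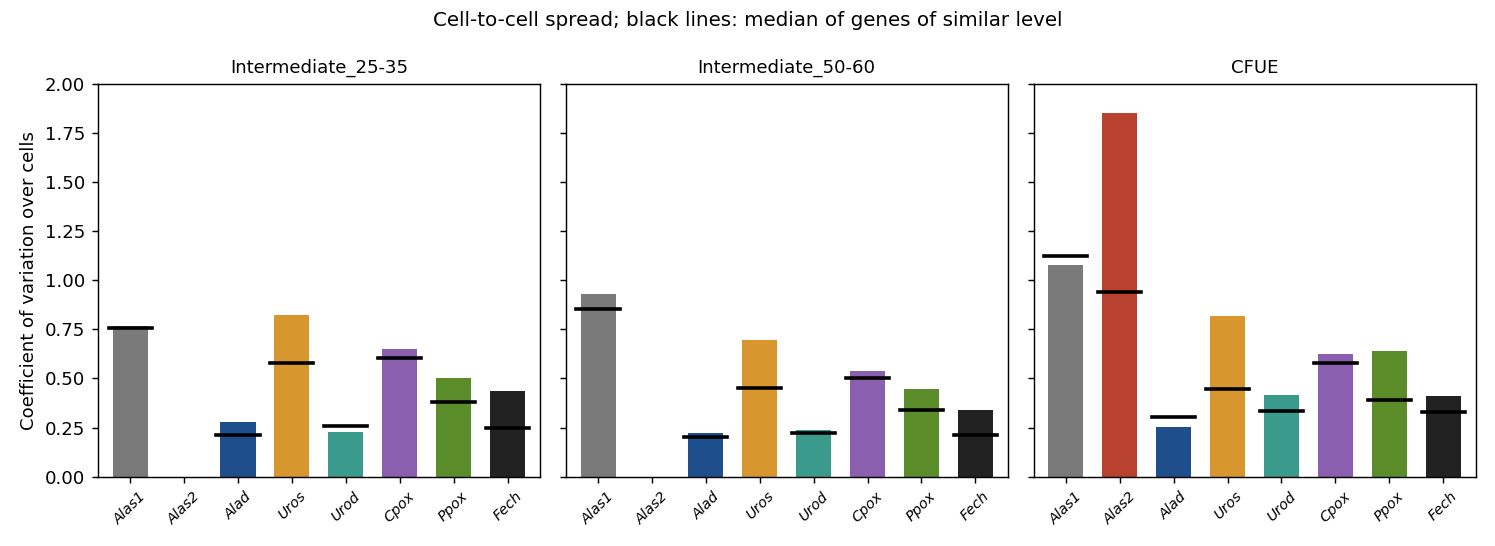
Coefficient of variation of per-cell CPM (bars) for each enzyme in the last 3 gates, with black lines for the median of genes of similar mean level; Alas2 is shown where its mean is 10 CPM or more. Alas2 in CFUE stands at 1.85 against 0.94, and Uros, Fech, Ppox and, by less, Cpox lie above their lines in all 3 gates.

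Levels of different genes were compared per kilobase of exon. In CFUE, in CPM per kilobase, Alad stood at 634, Urod at 313, Ppox at 83.6, Uros at 67.6, Fech at 62.0, Cpox at 15.4, Alas2 at 12.8 and Alas1 at 3.37. In Cd34-low BFUE, on the same scale, Alad stood at 333, Urod at 153, Ppox at 23.3, Fech at 19.1, Cpox at 9.95, Uros at 7.13, Alas1 at 6.22 and Alas2 at 0.0318. Alad and Urod led from Cd34-low BFUE on under either length. The order of Ppox, Uros and Fech in CFUE depended on the length, with Fech at 131, Uros at 110 and Ppox at 85.6 CPM per kilobase of the longest transcript.

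Over the 23 CFUE cells, the highest correlations of the 28 pairs of members were among Uros, Urod and Ppox. Pearson's r was 0.80 (Uros and Urod), 0.78 (Uros and Ppox) and 0.77 (Urod and Ppox). Close behind were Ppox and Fech at 0.73, Urod and Fech at 0.62, and Alas2 and Fech at 0.60. The first 3 pairs thus do not set their genes apart from other members. The cell of well D10 was the lowest of the 23 for Uros, Urod and Ppox, at 2.11, 169 and 2.11 CPM. Without it the values of their 3 pairs were 0.65, 0.59 and 0.58. The correlation of Ppox with Gata1 rested on that cell, at 0.76 with it and 0.41 without. That of Uros with Gata1 went from 0.63 to 0.08 without it. Summed levels were little moved by this cell: Uros was at a log2 ratio of 3.28 to Cd34-low BFUE without it and 3.25 with it.

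The genes whose pattern over the 91 cells was most like a member's were ranked by Pearson's r among 4052 named genes with a mean of 50 CPM or more over the kept cells. Alad was most like Blvrb (0.92), biliverdin reductase B, then Smim1 (0.87) and Fech (0.86). Fech was most like Blvrb (0.90), Smim1 (0.87) and Pklr (0.87), the red cell pyruvate kinase. Urod was most like Cited4 (0.84), Fech (0.83) and Asns (0.83), and Cpox like Blvrb (0.73), Nxpe2 (0.71) and Smim1 (0.70). Among the genes near Ppox were Cited4 (0.73) and Add2 (0.72). Uros was most like Dhrs11 (0.74), Mgst3 (0.72) and Ift140 (0.69). Alas2 was most like Hbb-bs (0.74), a beta globin gene, Hba-a1 (0.64) and Sptb (0.54), the erythroid spectrin beta chain, and the same 3 led with group means subtracted (0.66, 0.53 and 0.41). The nearest genes to Alas1 had low values, Atf7ip at 0.42, Flcn at 0.41 and Cyba at 0.38. With group means subtracted, Urod was the member nearest to Uros, at 0.49. Other genes then led for Alad (Acaa2, 0.59), Fech (Tango2, 0.48) and Urod (Elovl1, 0.59). Cpox kept Nxpe2 (0.44) and Blvrb (0.39), and Uros kept Ift140 (0.55) and Dhrs11 (0.55). Alad and Fech stood at 0.34 and Urod and Fech at 0.37. Their higher values over the 91 cells thus include the differences between groups.

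Other genes of the pathway were counted in the comparison of CFUE with Cd34-low BFUE. Of 23 genes for substrate supply, mitochondrial transport and cofactors, 21 were measured, 10 were higher, 1 was lower and 10 were neither, beside 13.6% higher and 24.9% lower among all genes, with a median log2 ratio of 0.36 beside -0.11. Abcb10, a transporter of the inner mitochondrial membrane, was 5.98-fold higher (328 against 54.8 CPM). Slc25a38, a mitochondrial glycine carrier, was 3.30-fold higher. Abcb6, a porphyrin transporter, was 2.77-fold higher at a low level of 14 against 5.04 CPM. The lower gene was Pdxk, pyridoxal kinase, at 2.71-fold (20 against 54.4 CPM), named after its value was known.

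The counts of the other lists stand beside the same background, 13.6% higher and 24.9% lower. Of 12 genes for heme breakdown, export and binding, 7 were measured, 3 were higher, 0 lower and 4 neither, with a median log2 ratio of 0.20. Hebp1, a heme-binding protein, was 5.45-fold higher, Blvrb 2.64-fold and Abcg2, an exporter of porphyrins, 1.76-fold. Pgrmc1 was at a ratio of 0.783. Of 10 genes for heme and iron sensing, 9 were measured, 0 were higher, 3 lower and 6 neither, with a median log2 ratio of -0.10, close to the -0.11 of all genes. Nr1d2, a heme-binding nuclear receptor, was 14.8-fold lower (0.931 against 13.7 CPM), its relative Nr1d1 2.13-fold lower and Aco1, the iron regulatory protein with aconitase activity, 1.54-fold lower. Eif2ak1, the heme-regulated kinase of translation, was at a ratio of 1.48. Of 6 genes known to regulate Alas1 in other tissues, 2 were measured. Lpin1 was 1.58-fold higher and Nrf1 was at a ratio of 0.893.

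Of 10 erythroid transcription factors, 2 were higher, 3 lower and 5 neither, at a median log2 ratio of 0.18. Among all genes, 13.6% were higher and 24.9% lower in this comparison. Klf1 was 1.60-fold higher and Gfi1b, named after its value was known, 1.53-fold. Gata2, which Gata1 replaces during erythroid maturation, was lower by 594-fold (interval 354 to 1087, on 14 reads in CFUE), Myb by 5.26-fold and Nfe2 by 2.15-fold. Gata1 itself was at 411 CPM in Cd34-low BFUE and 464 CPM in CFUE. Of 8 globin and globin chaperone genes, 4 globins were measured and all 4 were higher, from 49.2-fold (Hbb-bs) to 147-fold (Hba-a2). Reads may be misassigned between Hba-a1 and Hba-a2, and between Hbb-bs and Hbb-bt, which are nearly the same in sequence. The difference of Alas2 was larger in ratio than that of each globin, though its interval (111 to 3325) includes those of Hba-a1 (122) and Hba-a2 (147).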

How the data were processed

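Per the submitters' processing notes, STAR 2.4, the build GRCm38 and featureCounts were used by the authors. What they deposited are raw read counts (whole numbers) for each gene. The header of the table is shifted by an empty cell, so names were matched to columns in their order. Annotation release, strand setting and multi-mapped reads are choices not given in the sources used here. Of the gene identifiers, 99.7% are in GENCODE M21, which gave coordinates and exon lengths.

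Cells needed at least 50000 reads and 1000 genes. This left out 5 wells of 10596 to 16644 reads. Reads of the kept cells were added up within a group, and measured means 10 CPM or more in at least 1 of the groups compared. Ratios have exact conditional binomial intervals at 95%, levels exact Poisson intervals and shares exact binomial intervals. Reads without molecular identifiers are not independent molecules, so these cover counting error only. Where a group had 0 reads, 3 were assumed for a ratio. With 1 sample per gate, higher and lower mean 1.5-fold or more, not a test. Doublets were not called, since each well received 1 sorted cell. Of reads, 0% were in rows without a gene, and 0 columns had no sample.

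Members and gene lists were chosen with earlier results of these data known. Named genes are the members, the 3 nearest genes of each by correlation, and up to 4 genes per list with the largest differences. Not every gene named by this rule is reported here. Slc4a1, Gata1, Mpo and the single wells were picked with their values known.

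As alternatives, in R 4.3.3, size factors of DESeq2 1.42.0 and TMM factors of edgeR 4.0.16 replaced read totals. Results were also recomputed with averages of per-cell CPM, other totals, cell filters and low-level filters, cells thinned to 500000 reads, the rows A to D alone, the rows E to H alone, other Cd34 levels (50 and 200 CPM), and leaving out single cells. Leaving out the cells of wells D10, C1, E2 and H8, and the onset within plate rows, were added after the data were seen. A simulation with known ratios checked the script for CFUE against Cd34-low BFUE with 7710 genes. Its counts held Poisson counting error only, which the intervals assume. It therefore checks the calculation and says nothing of differences between cells or plate rows. The interval held the true ratio for 98% of the 50 genes set at 2-fold and for 98% of the 50 set at 1.5-fold, but for 90% of the 50 set at 10-fold. Software was Python 3.11.15 with scipy 1.17.1, pandas 2.3.3, numpy 2.4.6 and matplotlib 3.10.9.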

Additional observations from a re-analysis of the deposited data

Results flagged for a closer look

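Among the 8 Cd34-high BFUE cells, the highest value lay far from the others for 3 members. For 1 of them, Alas2, that value was a single read (0.725 CPM), and it is not counted here. The cell of well C1 had 51.4 CPM of Cpox, and the next cell 0.725. The cell of well E2 had 151 CPM of Fech, and the next cell 25.1. The measure was the gap to the next cell over the range of the 8 cells, with a mark of 0.526. For normally distributed values chance passes this mark in about 1 in 20 groups. The per-cell CPM here are skewed, and a single read of Alas2 passed it. That rate therefore cannot be applied to these cells, and how often chance would set them apart was not tested. In all, 8 members were examined.

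The 5 wells left out for their low read totals still held reads of members: 34 of Alad, 33 of Urod, 33 of Fech, 18 of Ppox and 6 of Uros in sum. They were 3 wells of Intermediate_25-35, 1 of BFUE and 1 of CFUE.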

How the results depend on the processing

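No paired analysis was possible because each gate is 1 sample and no result comes from a test, although wells of different gates share numbers in the labels. Of the 24 ratios of members at 1.5-fold or more, 1 changed its direction under 1 alternative, Uros between the BFUE subsets, whose log2 ratio was 0.34 in rows A to D. Beside it, 23 of the 24 left their counting interval in rows A to D, 21 in rows E to H, 13 without the cell with most reads of the gene, 11 with thinned cells, 7 with per-cell averages, 7 with TMM factors and 6 with DESeq2 size factors. So did 10 of 11 with all BFUE cells and 7 of 7 without the cells of wells C1 and E2. For counts of members, plate rows A to D gave 1 in place of 2 lower in Cd34-low than in Cd34-high BFUE and 1 in place of 0 lower in CFUE than in Intermediate_50-60. Rows E to H gave 6 in place of 3 higher in CFUE than in Intermediate_50-60. They also gave 1 in place of 0 lower in Intermediate_25-35 than in Cd34-low BFUE, and 1 in place of 0 lower in Intermediate_50-60 than in Intermediate_25-35. A level of 50 CPM or more tests fewer genes and gave 0 in place of 1 lower in CFUE and 1 in place of 2 lower in Cd34-low BFUE. Leaving out the cell with most reads of each gene gave 1 in place of 0 lower in CFUE than in Intermediate_50-60. Shares of all genes were not counted under these alternatives. The cause of the differences between plate rows was not tested. The other 142 counts under alternatives were within 1.5 times. The first group differed at 25 or 75% of the highest level in 10 of 16 values, shares of cells under other levels in 32 of 120, correlations on other log scales in 11 of 56 and coefficients of variation in 1 of 70, and the rank per kilobase differed with the longest transcript in 13 of 40. In single cells, absence of a gene below 10 CPM cannot be told from failed capture.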
